A study of Ovis aries with 3 samples.

Results

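The table lists 1 row under the symbol PRO (ENSOARG00000015448), of 25197 rows in all, and its Description reads only protease, with uncharacterized protein as a second name. It was chosen by its symbol and selected on its values in these 3 libraries, in which earlier results had shown it among the highest rows. Its level is therefore a description and is not tested. The 5 rows whose Description holds "retrovir", "syncytin", "Envelope glycoprotein" or "Gag" served as comparison. The working name of the row calls it an endogenous retroviral element. Nothing in the deposited table says so: its Description names no virus, all 5 comparison rows matched on "retrovir", and 0 rows matched each of the other words. The row is therefore called PRO here, and its retroviral origin was not tested.

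Retroviruses carry their genes in a fixed order: gag, for the inner shell of the particle, then the protease gene pro, pol for the copying and inserting enzymes, and env for the envelope protein. The protease is an aspartic protease that cuts the shell and enzyme precursors into their mature parts. Endogenous retroviruses are copies of such genomes that are inherited in the DNA of the host. Sheep carry a family of them related to Jaagsiekte sheep retrovirus, which is known to be expressed in the epithelium of the uterus and in the trophectoderm, the outer cell layer of the conceptus, and whose envelope uses the cell-surface hyaluronidase HYAL2 as its receptor.

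The data are RNA from extracellular vesicles, small membrane-bound particles shed by cells. Sheep conceptuses (embryo with extraembryonic membranes) of day 14 of pregnancy were each held for 24 h in 10 ml of medium with 10% fetal bovine serum that had been depleted of exosomes, and the vesicles were precipitated from the filtered medium. The 3 libraries, numbered here in the order of the labels, form 1 group with no control, no treatment and no RNA of the conceptus cells analysed here, and breed and genotype are not given in the labels. The library titles are bare numbers whose meaning no label gives, so libraries are not tied to animals here, and part of the spread over the libraries may be technical.

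The unit of the values is not named. They were taken as RPKM-type, that is, reads scaled for gene length and library depth, and comparisons of level between rows rest on that reading. The values summed to 17480.7, 40060.3 and 9531.8 in libraries 1, 2 and 3. Rows that stood at 1 or above in each of the 3 libraries are called detected here, and 981 rows were (3.89%). Library 3 stood apart by its low sum and by 12106 rows listed at 0, against 9990 and 8580 in libraries 1 and 2. The level, the share and the counts of detected list members are also given without it; 7.29% of all rows were at 1 or more in both of the other libraries.

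PRO was among the most abundant transcripts of every library, and library 3 held far less of it than the others. Its value was 190.3 in library 1, 299.0 in library 2 and 32.9 in library 3. Libraries 1 and 2 were high and library 3 was low. The mean was 174 ± 134 (SD, n = 3), and the coefficient of variation was 76.9%. Without library 3 the mean was 244.7. On the log2(value + 1) scale the level was 6.96 ± 1.66 (SD, n = 3).

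The number of reads behind these values depends on the length of the row, for which no source was used here. In the 1012 rows of U6, a short nuclear RNA, the step from 1 read to the next was estimated as 0.424, 0.533 and 0.451 in libraries 1, 2 and 3. A row of U6 length with the values of PRO would hold 449, 561 and 72.9 reads. A row 10 times as long would hold 4488, 5610 and 729 reads. For any row at least as long as U6, counting error is thus small beside the gap between library 3 and the others. Reads without molecular identifiers are not independent molecules, so this covers counting error only.

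PRO ranked 4th of all rows in library 1, 8th in library 2 and 19th in library 3. Among the 18262 rows with a symbol it ranked 1st, 3rd and 11th. By its mean it stood 8th of all rows and 3rd of those with a symbol. In library 1 no row with a symbol was higher. The 3 rows above it there had only an identifier. In library 2 the 7 rows above it comprised the ferritin chains FTH1 and FTL_4 and 5 rows without a symbol. In library 3 there were 18 rows above it, 10 of them with a symbol. These were FTH1, FTL_4 and FTL_2, the 5S ribosomal RNA copy 5S_rRNA_296, the glycolytic enzyme GAPDH, the ribosomal proteins RPL17_8 and RPS25_1, the actin-binding PFN1, the membrane-binding annexin ANXA2_2 and the ATP synthase subunit ATP5G3. ENSOARG00000001948, ENSOARG00000019903 and ENSOARG00000008767, all without a symbol, were above PRO in each of the 3 libraries.

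**Figure D1:**
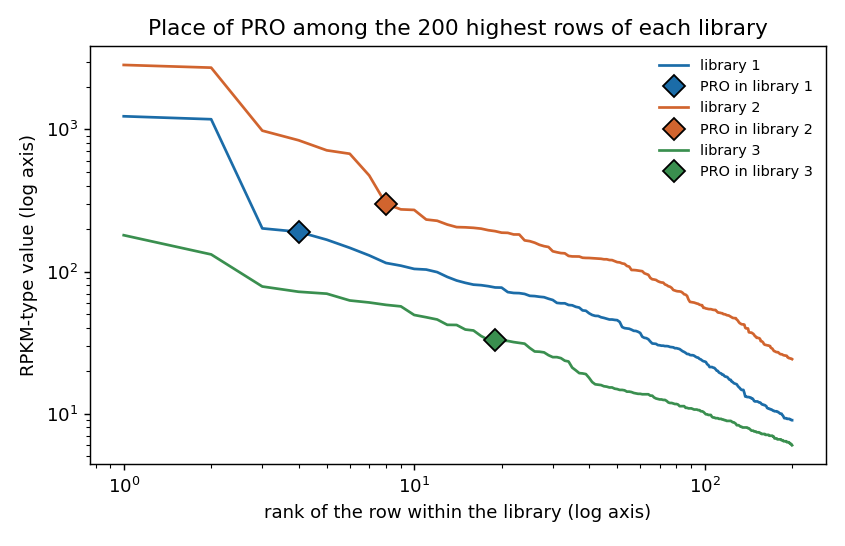
RPKM-type value against rank within the library for the 200 highest rows of each library, both on log axes. Lines stand for libraries and diamonds mark PRO, at rank 4 in library 1, rank 8 in library 2 and rank 19 in library 3.

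In mean level PRO sat among the iron-storing ferritins and above the ribosomal proteins with a symbol. Above it were FTH1, the ferritin heavy chain, at 318 ± 309, and FTL_4, a light chain copy, at 235 ± 214 (SD, n = 3). Next below came FTL_2, another light chain copy, at 123.5 ± 98.9 and RPS25_1, a protein of the small ribosomal subunit, at 111.9 ± 71.9 (SD, n = 3). RPL8 of the large subunit followed at 105 ± 88.2, then GAPDH at 101.2 ± 71.2 and RPS18 of the small subunit at 97.6 ± 89.4 (SD, n = 3). The mean of PRO was 0.548 times that of FTH1 and 1.41 times that of FTL_2. The ranges of all 7 neighbours overlapped the range of PRO, but the libraries differ in scale, so the ratios within a library are given next. FTL and RPS25 have several rows, and the way reads were divided among such copies is not stated. The same limit holds for PRO if copies of its sequence lie elsewhere in the genome.

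**Figure D2:**
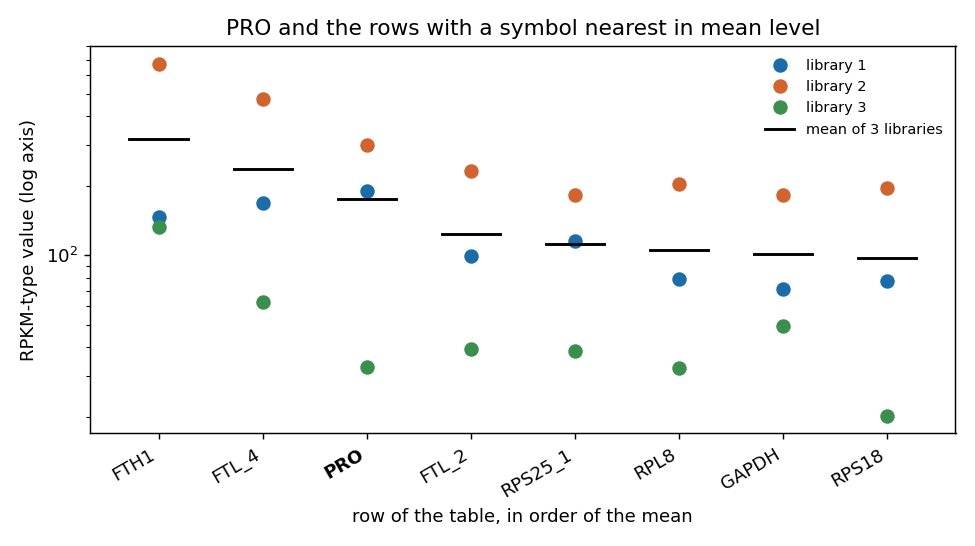
RPKM-type values (log axis) of PRO and of the rows with a symbol nearest to it in mean, with 1 point per library and a bar at the mean. Every row has its highest point in library 2, and PRO spans from 32.9 to 299.0, across the means of 6 neighbours and below that of FTH1.

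The order of PRO and its neighbours changed from library to library. PRO was 1.30 times FTH1 in library 1, 0.443 times in library 2 and 0.249 times in library 3. Against GAPDH the ratios were 2.65, 1.64 and 0.665. PRO was thus above both in library 1 and below both in library 3. PRO was higher in all 3 libraries than RPS18, at ratios of 2.47, 1.53 and 1.63, and than RPL8, at 2.41, 1.47 and 1.01. Against FTL_4, FTL_2 and RPS25_1 the ratio was above 1 in library 1 and below 1 in library 3. The ratio to ENSOARG00000001948, the highest row by mean, was 0.161, 0.105 and 0.183.

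PRO made up 1.09% of the summed value of library 1, 0.746% of library 2 and 0.345% of library 3. The mean share was 0.727% ± 0.372 (SD, n = 3), and 0.918% without library 3. Library 1, not library 2, held the largest share. The ratio of the highest to the lowest library was 9.09 in the deposited values and 3.15 in the shares. With libraries divided by their median ratio over the 981 detected rows (0.877, 1.94 and 0.684 in libraries 1, 2 and 3), PRO stood at 216.9, 153.9 and 48.1, a ratio of 4.51. Library 3 was lowest under each of these scalings, while libraries 1 and 2 changed places.

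**Figure D3:**
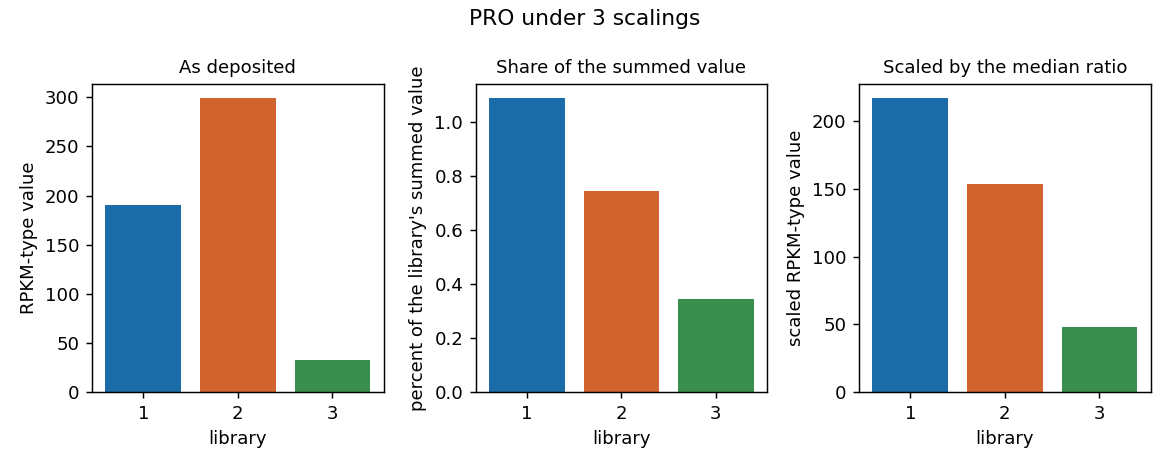
PRO in the 3 libraries as deposited (RPKM-type value), as a percent of the library's summed value, and as a value scaled by the median ratio over detected rows, with 1 bar per library from 0. Library 2 is highest as deposited and library 1 in the other panels, and library 3 is lowest in each.

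In log2(value + 1), PRO differed more than most rows wherever library 3 was involved. It was set beside the 2543 rows with a mean of 1 or more over the 3 libraries, a set chosen after the values were seen, which keeps rows that were low in library 3. Between libraries 1 and 3 PRO differed 5.78-fold, or by 2.50 in log2(value + 1), while the median row differed by 0.40 (quartiles -0.27 and 1.12). A smaller difference was found in 98.2% of the rows, and 46 rows, PRO included, made up the rest. Between libraries 2 and 3 PRO differed 9.09-fold, or by 3.15, against a median of 1.32 (quartiles 0.19 and 2.12), and 94.2% of rows lay below it. Between libraries 2 and 1 it differed 1.57-fold, or by 0.65, less than the median of 0.83 (quartiles 0.19 and 1.39). Here 41.3% of rows lay below it. Rows at low values cannot reach the differences of PRO from library 3 on this scale, whatever their fold. The percentages for library 3 thus partly restate the high level of PRO. Each of these differences sets 1 library against 1 other and has no replicate check.

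Relative to the typical detected row, PRO stood 61.4, 43.3 and 13.2 times higher than the median in libraries 1, 2 and 3, where the medians were 3.1, 6.9 and 2.5. In log2(value + 1) the distance was 5.54, 5.25 and 3.28, or 4.69 ± 1.23 (SD, n = 3) and 5.90 without library 3, where the detected rows are those at 1 or more in libraries 1 and 2.

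None of the 5 rows with a retroviral word in their Description came near PRO. None reached a value of 1 in any library, which 9.37%, 13.6% and 7.88% of all rows did in libraries 1, 2 and 3. Hence 0 of 5 were detected, against 3.89% of all rows, a share from which so few rows cannot be told apart. NYNRIN, which holds a domain derived from a retroviral integrase, stood at 0.4, 0.3 and 0.6 in libraries 1, 2 and 3. ASPRV1, a retroviral-like aspartic protease of the skin, stood at 0.2, 0.4 and 0.4. NYNRIN and ASPRV1 were thus both below 1 throughout. ERVW-1, whose human counterpart encodes the placental fusion protein syncytin-1, stood at 0.1, 0.2 and 0.5. XPR1, a phosphate exporter that some mouse retroviruses use as a receptor, stood at 0, 0.5 and 0. MRVI1, named for a retroviral integration site in mice, stood at 0.1 in each library.

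The highest of these 5 rows was 0.4, 0.5 and 0.6 in libraries 1, 2 and 3, and PRO was 475.8, 598 and 54.8 times higher. These ratios are rough, because such low values are rounded to 1 decimal. With the words matched in any case, RGAG4 (0.3, 0.2 and 0.1) and RGAG1 (listed at 0 in all 3) joined as genes with a retrotransposon gag domain. The 476 olfactory receptor rows, genes that the conceptus is not known for and a measure of background, had a 99th percentile of 1.45, 1.025 and 1.75. The 7 rows lay below it in every library, so their values are not above background. PRO lay above it in every library, which its selection for a high level made certain.

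The other rows that carry the word protease were low too. Of 40 such rows none was detected, beside 3.89% of all rows, a small gap for so few rows. The highest value of any was 0.5, 1.3 and 1 in libraries 1, 2 and 3. The leading ones by mean were PRADC1 (0.2, 0.6 and 1), which holds a protease-associated domain, and the serine proteases PRSS23 (0.3, 1.1 and 0.3) and PRSS8 (0.1, 1.3 and 0). PRSS42 (0.3, 0.3 and 0.6) and TMPRSS3 (0.5, 0.3 and 0.3) followed. Of 290 rows with the word peptidase, 5 were detected (1.72%), and none exceeded 14.5.

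Of 18 rows with transposon, transposable or transposase in the Description, 1 was detected (5.56%, near the 3.89% of all rows), ENSOARG00000008566, a fusion of a SET domain with a mariner transposase, at 2.6, 1 and 1.9. PEG10, a placental gene derived from a retrotransposon, stood at 0.2, 0.4 and 0.1. A row named oar-mir-136_1 but described as retrotransposon-like 1 stood at 0.2, 0.3 and 0.4. The list of host genes derived from retroelements held 38 symbols, of which only 13 matched a row. Of these 13, PEG10, NYNRIN, ASPRV1 and ERVW-1 included, 0 were detected. The median of this list was 0.2 in each library, where that of all rows was 0.1, and its highest value in any library was 0.6.

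Host genes that act on retroviruses were each lower than PRO, by margins that differed between libraries. Of 121 matched rows in 6 lists on retroviral biology and aspartic proteases, 7 were detected (5.79%, beside 3.89% of all rows). Without library 3 there were 14 (11.6%, beside 7.29% of all rows). None of the 121 was as high as PRO in any library. Only 3, 7 and 18 of all rows were above PRO in libraries 1, 2 and 3. As PRO was selected for its level, this says little about the 121 rows. Among 10 entry receptors SLC20A1, a phosphate transporter and receptor of gibbon ape leukemia virus, was detected at 1.3, 1.4 and 1.1. In libraries 1 and 3 that is under the 99th percentile of olfactory receptors. HYAL2, the receptor named above, stood at 0.2, 0.6 and 1, and the lysophospholipid transporter MFSD2A, a receptor of human syncytin-2, at 1.7, 0.2 and 0.

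Among 28 genes of the silencing machinery 1 was detected (3.57%, near the 3.89% of all rows). This was HDAC2, a histone deacetylase, at 1.9, 1.3 and 1.5. In library 3 that is under the 99th percentile of olfactory receptors, 1.75. The heterochromatin protein CBX5 (0.6, 4.2 and 0) and the deacetylase HDAC1 (1.6, 2.2 and 0.6) fell short of 1 in library 3. HDAC1 and HDAC2 were the 2 detected without that library, where 7.29% of all rows were. TRIM28, the co-repressor that recruits this machinery to endogenous retroviruses, stood at 0, 0.7 and 0.1, and the histone methyltransferase SETDB1 at 0.1 in each library. The list of restriction factors held 35 symbols, and those without a row of that name, such as BST2 and IFITM3, could not be assessed. None of the 21 matched rows was detected. With 3.89% of all rows detected, 0 of 21 says little about them. The double-stranded RNA sensor EIF2AK2 (1.4, 2.7 and 0), the interferon-induced MX1 (0.8, 1.6 and 0) and OAS1 (0.9, 0.7 and 0.7) led them. Without library 3, EIF2AK2 was the 1 detected.

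Genes for RNA export, packaging and budding were detected in 5 of 29 cases (17.2%, beside 3.89% of all rows). Without library 3 there were 8, beside 7.29% of all rows. The 5 detected in all 3 libraries were the poly(A)-binding protein PABPC1 (10, 22.1 and 14), the RNA-binding YBX1 (11, 22.6 and 6.6) and HNRNPA2B1 (3, 7.1 and 2.2), the membrane-scission subunit CHMP2A (2, 9.1 and 1.8) and the recycling GTPase RAB11A (1.4, 4.5 and 2.4). All of these also serve cellular RNA or membrane traffic. PRO had 11.3 times the mean of PABPC1 and 13.0 times that of YBX1. In library 3 alone PRO, at 32.9, was 2.35 times PABPC1, and the whole list summed to 37.1. PABPC1 was higher in library 3 than in library 1, the reverse of PRO.

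None of 21 rows matched to the list of cellular aspartic proteases was detected. Beside 3.89% of all rows, this too says little. The list was matched by symbol, and PAG1 in it is by its Description a membrane anchor and no protease. The membrane protease BACE2 (3, 3.6 and 0.4) led, followed by the intramembrane proteases SPPL2A (1.4, 2 and 0) and SPPL3 (0.7, 0.9 and 1.2). BACE2 and SPPL2A were the 2 detected without library 3, where 7.29% of all rows were. Pregnancy-associated glycoproteins belong to the same protein family. A row with the Description pregnancy-specific antigen, ENSOARG00000011496, was picked with its values known and had 16.7, 200.4 and 14.3. It was 0.0878, 0.670 and 0.435 times PRO in libraries 1, 2 and 3, while PAG4 (0.1 in each library) and PAG11 (0, 0.1 and 0) were near 0 and PAG6 was listed at 0 in all 3.

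**Figure D4:**
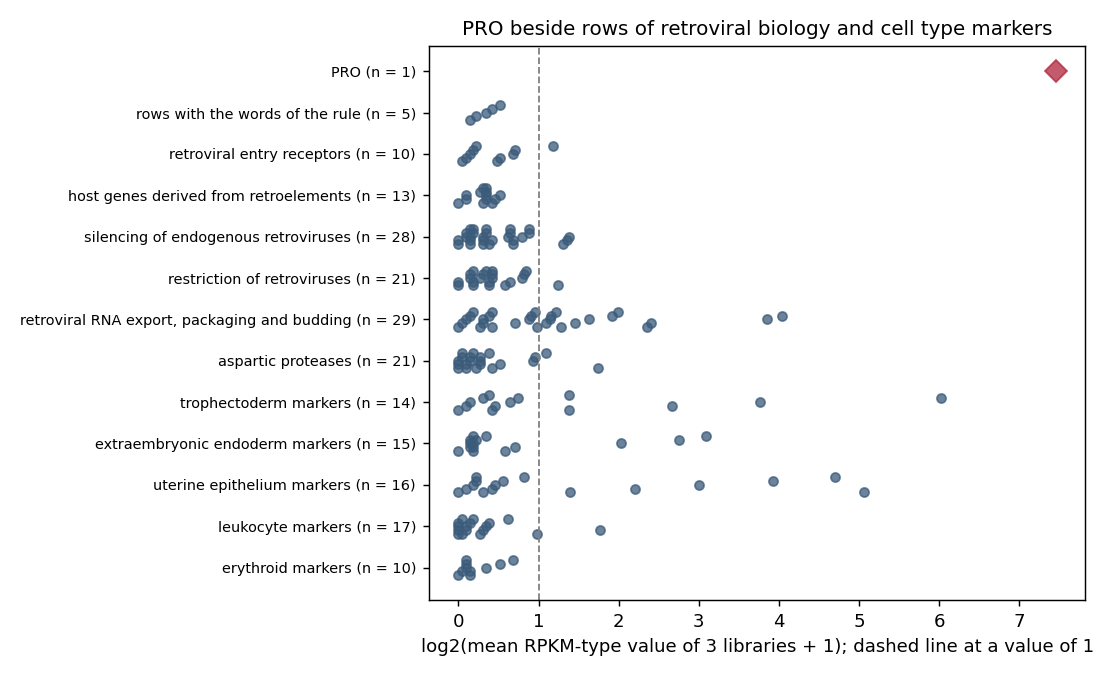
Mean of 3 libraries as log2(value + 1) for PRO, for the 5 rows with retroviral words and for the members of 11 gene lists, with 1 point per row and a dashed line at a value of 1. PRO lies to the right of every other point, and the rows with retroviral words all lie left of the line.

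Markers of both the conceptus and the uterus were present, so the cell source of PRO could not be told from them. Of 14 trophectoderm marker rows 3 were detected (21.4%, beside 3.89% of all rows). These were the epithelial keratin KRT8 (26.3, 138.9 and 27.3), the interferon tau gene TP-1 (6.7, 26.2 and 4.7) and the calcium-binding S100G (2.6, 11.9 and 1.6). Their list summed to 39.8, 185 and 38.9. Of 16 rows of the uterine epithelium 4 were detected (25%, beside 3.89% of all rows), and 6 without library 3 (beside 7.29% of all rows). The list summed to 65.4, 183 and 11.5. The 4 were the uterine galectin LGALS15 (18.8, 74.2 and 4.5), CST6, a cystatin that blocks cysteine proteases (24.9, 49.1 and 1.1), FXYD4, a regulator of the sodium pump (10.4, 30.2 and 1.8), and IGFBP1, a binding protein of insulin-like growth factors (5.6, 13.3 and 2.2). The 4 uterine rows were lower in library 3 than in library 1 under each of the 3 scalings, as PRO was, and KRT8 was higher. TP-1 and S100G were lower in library 3 as deposited (4.7 against 6.7 for TP-1) but higher per 1000000 of the summed value (493 against 383 for TP-1). Scaled by the median ratio they were lower in library 3 (6.87 against 7.64 for TP-1 and 2.34 against 2.96 for S100G). Whether each marker, KRT8 included, is particular to 1 source was not checked. The part of the markers in the level of PRO was not tested.

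Of 15 rows of extraembryonic endoderm 2 were detected (13.3%, beside 3.89% of all rows). They were the apolipoprotein APOA1 (6, 10.3 and 6.3) and the adaptor DAB2 (1.1, 14.6 and 1.5). The list summed to 10.4, 32.4 and 13.4. The 17 leukocyte rows (0 detected) summed to 3.4, 7.2 and 5.4, and the 10 erythroid rows (0 detected) to 2.2, 2.1 and 0.9. At 3.89% of all rows, 0 detected in lists this short says little. The erythroid list held 18 symbols, and those without a row of that name, such as HBA and HBB, could not be assessed. AIF1 (0.3, 2.8 and 4.1) led the leukocyte list and EPB42 (0.4, 0.9 and 0.5) the erythroid list. Of the leukocyte rows, CD74 (1.5, 1.3 and 0.1) was detected without library 3, where 7.29% of all rows were. In bulk RNA a change in the number of vesicles of 1 source and a change in RNA per vesicle cannot be told apart.

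PRO exceeded each of these marker genes in every library, by ratios that varied. Only 3, 7 and 18 of all rows were above PRO in libraries 1, 2 and 3. As PRO was selected for its level, exceeding the markers says little about them. PRO was 28.4, 11.4 and 7 times TP-1 and 7.24, 2.15 and 1.21 times KRT8 in libraries 1, 2 and 3. Against LGALS15 the ratios were 10.1, 4.03 and 7.31. The ratio to TP-1 spanned 4.06-fold between libraries and that to LGALS15 2.51-fold.

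The rows whose pattern over the libraries was most like that of PRO were mainly ribosomal protein rows. Likeness was measured as the root mean square difference of log2(value + 1) over the 3 libraries, after each row was centred on its own mean. It was computed for the 227 detected rows other than PRO with a mean of 10 or more. Among the 8 nearest rows with a symbol were RPS21 (distance 0.08), RPS28 (0.09), RPL13A_1 (0.14), RPL31 (0.15), RPS20 (0.18), VTI1B (0.19) and RPS16 (0.20), beside a median distance of 0.58 over the rows compared. Of those named, all but VTI1B, a membrane fusion protein of the endosomal and Golgi pathway, encode ribosomal proteins.

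RPS21 stood at 31, 54.1 and 5.5 in libraries 1, 2 and 3. RPS28 stood at 29.4, 39.8 and 3.9, and RPL31 at 66.5, 127.8 and 14.3. Like PRO, these rows were highest in library 2, next in library 1 and lowest in library 3. RPS20 (80.2, 159.6 and 12.6) had the highest mean of those named. VTI1B stood at 12.8, 29.1 and 1.9.

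Rows named RPL or RPS were 7 of the 8 nearest (87.5%) and 35 of the 137 rows with a symbol that were compared (25.5%). Their median distance from PRO was 0.38, with a range of 0.08 to 1.45. The other 102 rows had a median of 0.70 and a range of 0.19 to 1.45. Of the 34 nearest rows with a symbol 18 were named RPL or RPS, and of the 34 farthest 2 were. The ranges overlapped, and the farthest row with a symbol was also a ribosomal protein row. This grouping was chosen after the values were seen. A pattern over 3 libraries that share their scaling is a description only.

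The ferritin heavy chain and the markers compared were less like PRO than these 8 rows were. LGALS15 lay at a distance of 0.52, TP-1 at 0.84, FTH1 at 0.97 and KRT8 at 1.06. FXYD4, the nearest marker, lay at 0.33 and CST6 at 0.62. In centred log2(value + 1), PRO was at 0.62, 1.26 and -1.88 in libraries 1, 2 and 3, and KRT8 at -0.80, 1.55 and -0.75. The 2 differed most in library 1.

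**Figure D5:**
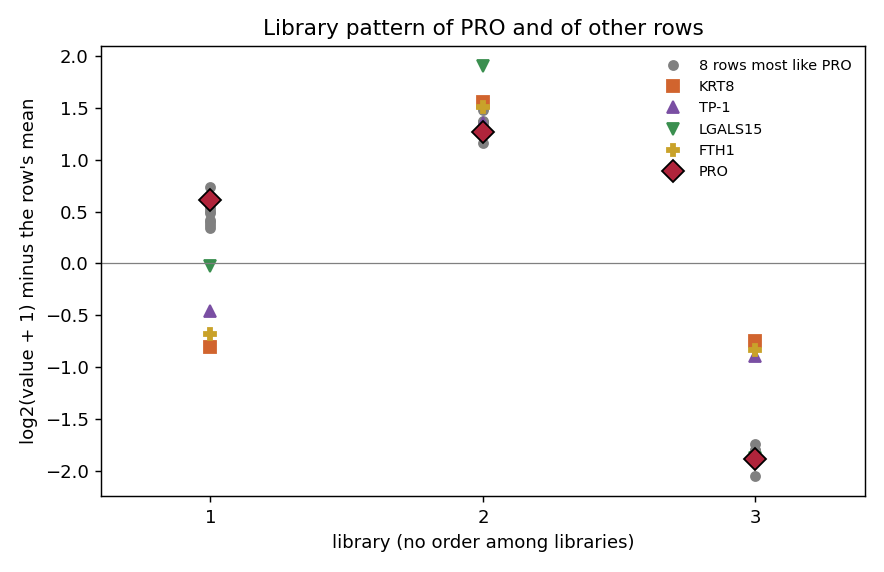
Centred log2(value + 1) in each library for PRO (diamond), the 8 rows most like it (gray), KRT8, TP-1, LGALS15 and FTH1. PRO and the gray points are above 0 in libraries 1 and 2 and near -1.88 in library 3, while KRT8, TP-1 and FTH1 are below 0 in library 1.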

How the data were processed

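RNA of conceptus extracellular vesicles was sequenced in 3 libraries as paired-end reads of 50 bp from SMART-Seq v4 cDNA made from 5 ng of RNA, per the labels' protocols. The authors deposited 1 table of values per gene, rounded to 1 decimal. Its unit is not named. The values were taken as RPKM, as deposited by the authors, because columns have no fixed total and short genes step by more than long ones; FPKM would look alike. Per the submitters' processing notes, the genome build was Oar_v3.1. Which aligner and counter were used, and how reads matching several places were treated, is not stated.

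Columns were matched to libraries by title. Values were compared as deposited or as log2(value + 1) with pandas 2.3.3; no test was run, since 1 group was measured and PRO was proposed from its level. Ranks and the likeness measure were tested on simulated data. Rows named are PRO, the rows of the Description rule, the 5 highest protease rows, the 3 highest and up to 6 detected members of each of 11 lists, 5 neighbours on each side, the 8 most alike (1 of which is not reported here), and HYAL2, TP-1, KRT8 and LGALS15; TRIM28, SETDB1, PEG10, PAG1, PAG4, PAG6, PAG11, the transposon rows and rows above PRO were named after their values were seen. The members and lists were chosen with earlier results of these data known. Alternatives were other scalings, pseudocounts, detection values and the omission of each library. No sequence of PRO was used here.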

Additional observations from a re-analysis of the deposited data

How the results depend on the processing

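The mean of PRO, 174, was 139.7 with median ratio scaling and 7267 per 1000000 of the summed value, which is another unit; leaving out 1 library at a time gave 111.6 to 244.7. The ratio of the highest to the lowest library fell from 9.09 to 3.15 with equal column sums and to 4.51 with median ratio scaling. Its share ranged from 0.546% to 0.918% with 1 library left out. The distance from the median detected row, 4.69, ranged from 4.50 to 5.90 with 1 library left out and was 6.83 with no filter, where the median is that of all rows. It was 5.44 and 3.83 at detection values of 0.5 and 2. By rank of the mean PRO was 8th with deposited values, with equal column sums and with median ratio scaling, and 6th to 9th with 1 library left out; the last 2 settings were added after seeing the data. Of the 5 rows with retroviral words, 0 were detected at values of 0.5, 1 or 2, and with any 1 library left out. At these settings 1.89% to 7.56% of all rows were detected, so 0 of 5 says little. Of the 8 rows most like PRO, 7 were shared with the 8 found with equal column sums, and 7 with those found at a mean of 5 or more. Over all lists 16 of 193 rows were detected, 26 at a value of 0.5, 8 at a value of 2 and 16 to 26 with 1 library left out (26 without library 3), while the share of all rows moved from 3.89% to 7.56%, 1.89% and, without library 3, 7.29%. No paired analysis was possible because there is 1 group. With 3 libraries and values rounded to 1 decimal, levels below 1 are not resolved.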
